A study of Mus musculus with 36 samples.

Results

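The 10 genes described here differ between natural killer (NK) cells of B2m knockout mice (KO) and of wild-type mice (WT) in each of 3 sorted splenic subsets. They were picked by symbol, outside the Khdc1 gene cluster, because earlier values of the same libraries had shown that difference, so the KO against WT values below describe the choice and carry no test. Of 32940 rows in the table of sorted subsets, 12018 had a mean of at least 1 TPM (a level scaled to transcript length and to a fixed total per library), and all 10 genes were among them. The other 3 tables list 56923 rows each, and all 10 genes passed the same minimum there too. Over the rows listed for the sorted subsets the TPM of a library summed to 934292 to 948786. In each library of the other 3 tables the sum was 1000000.

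B2m encodes beta-2 microglobulin, the light chain without which most MHC class I does not reach the cell surface. Ly49C, Ly49I and NKG2A are inhibitory receptors of NK cells that recognise class I or class I-like molecules, and NK cells that mature without class I respond weakly to many stimuli. The genes belong to several unrelated systems. Arhgap31 and Eps8l1 act on signalling to actin, Slc28a2, Entpd4 and Ugt1a7c handle nucleosides, nucleotides or sugar nucleotides, Camk2b is a calcium-regulated kinase subunit, Cep85 and Cdk5rap1 serve centrosomes and transfer RNA modification, Ccdc117 encodes a coiled-coil protein, and Oip5os1 is a long non-coding RNA.

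RNA was measured in 36 libraries of mouse NK cells, 12 groups of 3. In WT and KO mice, NK cells of the mature CD27-CD11b+ stage were sorted from spleen into TP cells, which carry Ly49C, Ly49I and NKG2A, SP cells, which carry Ly49I alone, and TN cells, which carry none of these receptors. All other libraries are labelled WT. They are NK cells purified from splenocytes after 22 h with the calcium ionophore ionomycin or its vehicle, NK cells of spleen after 48 h in medium alone, on antibodies to NKp46 with NKG2D, or on antibodies to NKp46 with DNAM-1, and CD27-CD11b+ NK cells from subcutaneous MC38 tumours (a colon carcinoma line) labelled B2m, taken at day 10. Mouse age and strain background are not given in the labels used here. The KO mice lack B2m in every cell, so its loss was not limited to NK cells. In bulk samples such as these, a change in the number of cells that hold an RNA cannot be told apart from a change in RNA per cell.

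The depth of the libraries is unknown, since TPM keeps no read totals, and the number of genes above 0 ran from 12290 to 14501 in the table of sorted subsets. B2m (ENSMUSG00000060802) checked the genotype labels: it ran from 2915 to 3420 TPM in the 9 WT libraries and from 73.9 to 128 TPM in the 9 KO libraries. The summed level of 9 NK cell markers overlapped between genotypes, at 15950 to 19253 TPM in WT and 15957 to 19348 TPM in KO libraries. A sum of 4 receptor genes tied to the sort (Klra3, Klra9, Klrc1 and Cd27) was higher in KO cells without overlap in each subset. In TP cells it was 2471 to 2794 TPM in KO against 2034 to 2258 TPM in WT libraries. The same sums were 1383 to 1679 against 954 to 1156 TPM in SP cells and 377 to 389 against 266 to 313 TPM in TN cells. The 3 KO TP libraries stood apart for other cell types. Each of 6 listed neutrophil markers was above 0 in at least 1 of them, with sums of 61.0 to 217 TPM, while all 6 were at 0 in the 3 WT TP libraries. Sums of 7 B or plasma cell markers were 227 to 467 TPM in KO TP against 33.2 to 42.5 TPM in WT TP libraries. Macrophage or dendritic cell markers summed to 22.5 to 55.9 TPM in KO TP against 11.8 to 15.0 TPM in WT TP libraries. For T cell markers the sums were 9.55 to 11.3 against 0.77 to 2.5 TPM. T cell sums also stood apart in SP cells, at 3.35 to 8.21 TPM in KO against 0 to 2.52 TPM in WT libraries, and overlapped in TN cells. In SP and TN cells the neutrophil sum did not exceed 5.85 TPM in any library. B or plasma cell sums there reached 19.5 TPM (WT SP), 52.8 (WT TN), 13.8 (KO SP) and 18.65 (KO TN). Each of the 10 genes differed between genotypes in the same direction in SP and TN cells, but that difference chose the genes. The part of other cell types in the differences was not tested.

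The sequences that bear on these genes were taken from RefSeq and from transcript models. Oip5os1, also called Cyrano, is known for one site that pairs almost end to end with the microRNA miR-7 and sends that microRNA to decay, which is why the site is shown with both mouse forms of miR-7. In the microRNAs the seed, bases 2 to 8, is in capitals. In the site, bases 2935 to 2959 of the 8300-base transcript model (GENCODE M21), the capitals mark the 13 bases that equal the reverse complement of the miR-7a 3′ end and the 8 bases that equal that of its 5′ end. Both microRNAs have the same seed.
mmu-miR-7a-5p: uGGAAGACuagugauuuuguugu
mmu-miR-7b-5p: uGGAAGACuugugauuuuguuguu
Oip5os1 site: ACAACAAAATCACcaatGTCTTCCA
The site leaves 4 of its 25 bases unpaired in the middle, opposite 2 bases of miR-7a. A further match to the 5′ end of miR-7a, without the 3′ part, lies elsewhere in the same model.

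Upstream sequence was available for 7 of the 10 genes, 9 promoters in all, and is shown for 2 genes that were lower and 2 that were higher in KO cells. Each run is the 250 bases before the RefSeq start site, on the gene's strand, with GRCm38.p6 coordinates, while the expression tables were made on GRCm39. Capitals mark matches, on either strand, to the letters CCAAT, to the GC box letters GGGCGG, or to TGTGGT, the letters bound by RUNX factors. Neighbouring GC box matches can touch or overlap.
Slc28a2 (chr2:122426185-122426434, plus strand): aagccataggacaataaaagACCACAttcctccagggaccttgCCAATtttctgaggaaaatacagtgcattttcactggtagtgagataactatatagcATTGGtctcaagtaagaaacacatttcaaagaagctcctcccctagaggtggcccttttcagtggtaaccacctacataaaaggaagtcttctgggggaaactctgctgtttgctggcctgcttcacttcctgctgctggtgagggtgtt
Oip5os1 (chr2:119594046-119594295, plus strand): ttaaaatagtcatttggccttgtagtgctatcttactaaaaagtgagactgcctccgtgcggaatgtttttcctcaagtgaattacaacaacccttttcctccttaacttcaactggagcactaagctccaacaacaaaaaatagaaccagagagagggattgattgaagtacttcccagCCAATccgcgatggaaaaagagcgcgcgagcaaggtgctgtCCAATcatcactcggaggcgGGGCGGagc
Camk2b (chr11:6065749-6065998, minus strand): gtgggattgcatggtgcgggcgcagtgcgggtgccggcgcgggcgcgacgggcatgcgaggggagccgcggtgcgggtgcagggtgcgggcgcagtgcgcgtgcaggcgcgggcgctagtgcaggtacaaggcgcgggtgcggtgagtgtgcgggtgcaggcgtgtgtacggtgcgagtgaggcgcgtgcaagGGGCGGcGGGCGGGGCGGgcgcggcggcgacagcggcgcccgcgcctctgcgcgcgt
Cep85 (chr4:134187086-134187335, minus strand): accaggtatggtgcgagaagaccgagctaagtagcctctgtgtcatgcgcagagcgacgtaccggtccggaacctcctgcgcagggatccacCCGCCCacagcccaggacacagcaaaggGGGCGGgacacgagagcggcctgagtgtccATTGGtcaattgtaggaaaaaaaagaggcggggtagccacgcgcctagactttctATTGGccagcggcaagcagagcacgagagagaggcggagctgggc
CCAAT was found in 4 of the 9 promoters (Cep85, Eps8l1, Oip5os1 and Slc28a2) and in 33.8% of 32851 RefSeq promoters. GGGCGG was found in 7 of 9 (Camk2b, Cdk5rap1, Cep85, Eps8l1 with 3 promoters, and Oip5os1) and in 32.7% of all. A pair of the Eps8l1 windows overlap and hold the same match, so that site is counted for both, and by gene the match was found in 5 of 7. TGTGGT was found in Slc28a2 alone and in 14% of all promoters. None of the 9 held TGACGTCA (CRE, 1.55% of all), TGANTCA (AP-1, 6.75%), CCGGAAG (ETS, 6.91%), TCACACC (T-box, 3.33%) or TATAAA (12.4%). The windows differ in base composition: Camk2b has 78.4% G or C and 44 CG pairs, Cep85 61.2% and 18, Oip5os1 46.4% and 10, and Slc28a2 45.2% and 0, against medians of 52.4% and 6 over all promoters.

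The WT and KO libraries compared first are the 18 of the sorted subsets. For all 10 genes the 9 KO libraries lay wholly above or wholly below the 9 WT libraries. Of all 12018 tested genes 1.22% did so, 0.824% with the KO libraries higher and 0.399% with them lower, but the same contrast chose the genes and nothing is read from that share. Arhgap31, Eps8l1, Slc28a2, Ugt1a7c, Entpd4 and Oip5os1 were lower in KO cells, and Camk2b, Cep85, Cdk5rap1 and Ccdc117 were higher. Among tested genes ordered by the size of their mean difference on the log2(TPM + 1) scale, B2m was number 2, Eps8l1 number 4, Arhgap31 number 7, Ugt1a7c number 21 and Slc28a2 number 22. Oip5os1, at number 938, had the smallest difference of the 10.

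**Figure D1:**
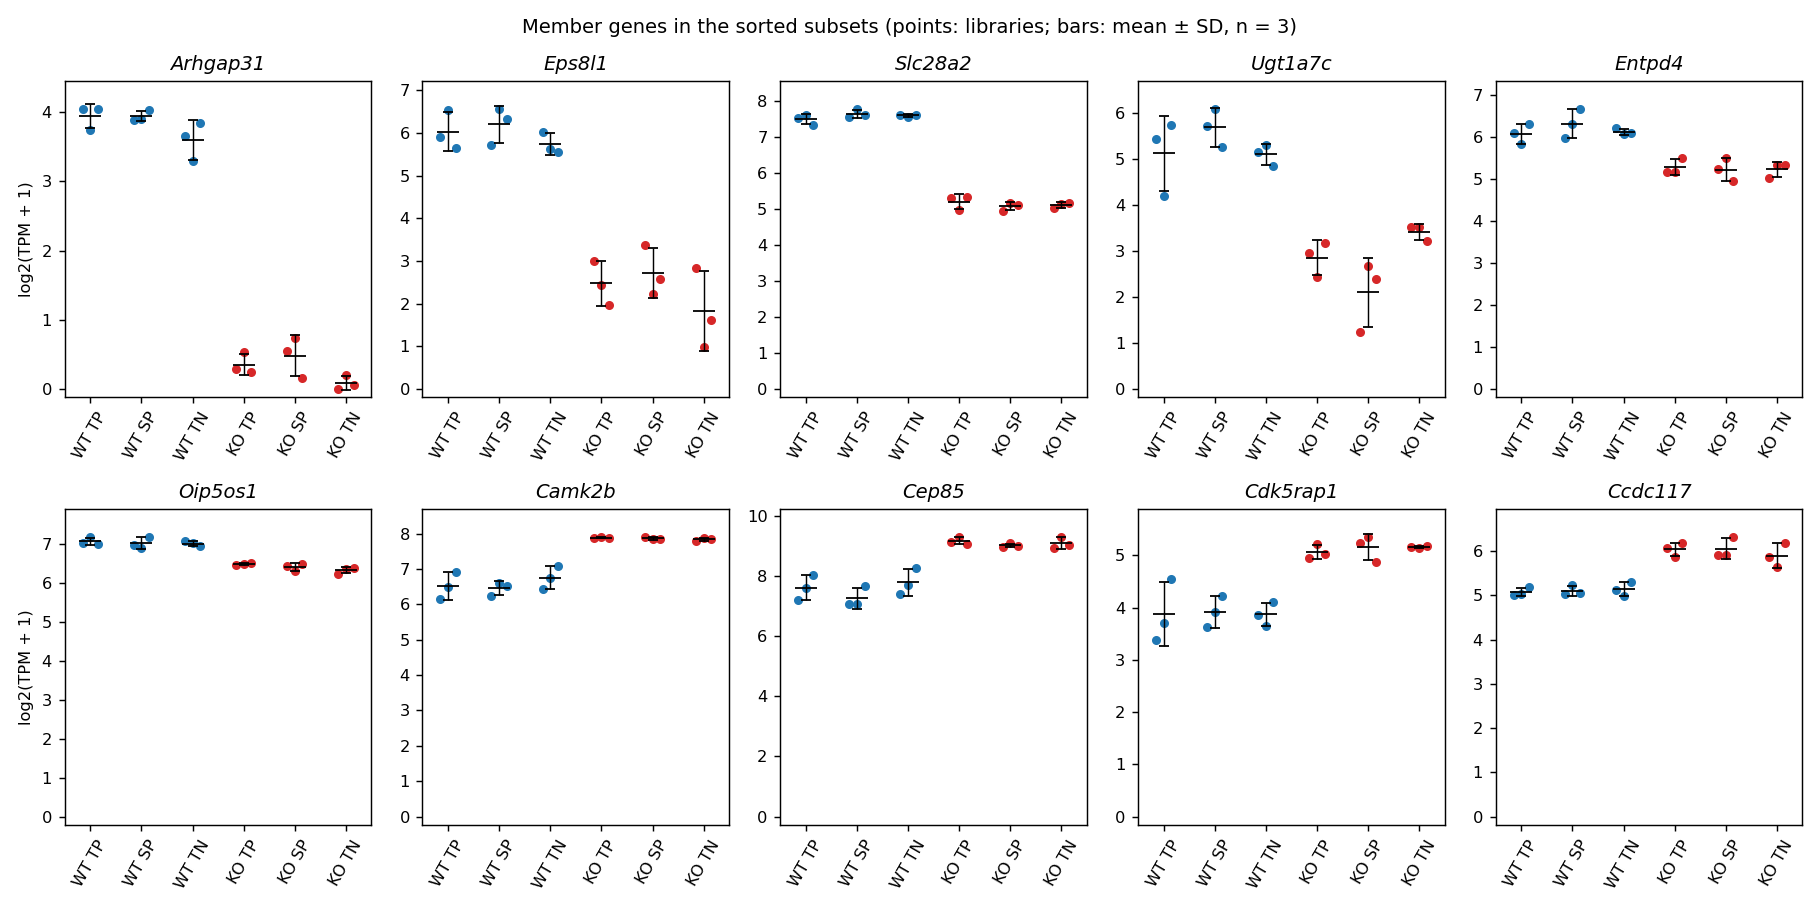
Level of each of the 10 genes, as log2(TPM + 1), in the 18 libraries of the sorted subsets; blue points are WT and red points KO libraries, and black bars are the mean ± SD of 3 libraries. In every panel the 9 KO libraries lie wholly on 1 side of the 9 WT libraries.

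Among the regulators of actin, Arhgap31 (ENSMUSG00000022799), a GTPase-activating protein for Rac1 and Cdc42, was close to absent from KO cells. Its level in the 9 WT libraries was 8.78 TPM at the lowest, 13.8 at the median and 15.5 at the highest, and in the 9 KO libraries 0, 0.18 and 0.66 TPM. The lowest WT library was 13.3 times the highest KO library, and the KO mean was 1.88% of the WT mean. Eps8l1 (ENSMUSG00000006154), an adaptor of the Eps8 family that links receptors to Rac and actin, ran from 46.3 TPM through a median of 59.4 to 93.6 TPM in WT libraries and from 0.99 through 4.44 to 9.36 TPM in KO libraries. Its KO mean was 7.13% of the WT mean, and its KO libraries differed among themselves by 9.45-fold, while the WT libraries differed by 2.02-fold. On the log2(TPM + 1) scale the KO minus WT differences in TP, SP and TN cells were -3.59, -3.47 and -3.51 for Arhgap31 and -3.56, -3.48 and -3.93 for Eps8l1.

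The relatives of Eps8l1 were near or at 0. Eps8l3 was at 0 in all 18 sorted libraries, and Eps8 did not exceed 0.37 TPM in any of them. Eps8l2 was at 0 in all 9 WT libraries and averaged 0.30 (TP), 0.08 (SP) and 0.23 TPM (TN) in KO cells. Over all tested genes the share called between KO and WT cells (limma, adjusted p under 0.05) was 1.59% for TP, 1.35% for SP and 0.716% for TN cells, and 0.399% were called in all 3. Cdc42, a GTPase that Arhgap31 acts on, stood at 569 ± 24.1 TPM in WT and 587 ± 31.3 TPM in KO libraries (SD, n = 9 each) and overlapped between genotypes.

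Slc28a2 (ENSMUSG00000027219), a sodium-coupled transporter that brings purine nucleosides into the cell, had little spread within each genotype. WT libraries ran from 162 through a median of 193 to 218 TPM, and KO libraries from 29.9 through 33.9 to 39.3 TPM. Within each genotype the highest library was no more than 1.35 times the lowest, and the KO mean was 17.9% of the WT mean. The KO minus WT differences were -2.29 (TP), -2.57 (SP) and -2.49 (TN) on the log2(TPM + 1) scale. Its neighbour and relative Slc28a2b had a higher mean in KO cells at a far lower level, with 1.504 ± 0.963 TPM in WT and 4.03 ± 1.38 TPM in KO libraries. They overlapped, and the gene was not called in any subset (limma, adjusted p 0.547 for TP, 0.385 for SP and 0.393 for TN cells). Of the 50-base words in the Slc28a2 transcript models, 35.4% also occur in Slc28a2b, so reads of both may be split between them. Their summed level was lower in KO cells as well, at 33.2 to 41.9 TPM against 162 to 220 TPM in WT libraries, a KO mean of 19.8% of the WT mean. Of 10 listed genes of nucleoside transport and salvage 8 were tested, and 0 were called in any subset.

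Entpd4 (ENSMUSG00000095463), a nucleoside diphosphatase of Golgi and lysosomal membranes, was lower in KO cells by a smaller factor. WT libraries ran from 55.9 through 68.0 to 101 TPM and KO libraries from 29.9 through 36.8 to 44.4 TPM, and the KO mean was 51.6% of the WT mean. The differences were -0.80 (TP), -1.09 (SP) and -0.89 (TN). Every 50-base word of the Entpd4 transcript models also occurs in its neighbouring copy Entpd4b (ENSMUSG00000022066), and 5 of the 6 Entpd4 models are identical to an Entpd4b model, so the level of either gene alone is uncertain. Entpd4b showed the same pattern, 37.5 ± 7.87 TPM in WT and 19.5 ± 2.32 TPM in KO libraries with no overlap, and the sum of both copies was 92.4 to 138 TPM in WT and 48.5 to 68.2 TPM in KO libraries. As a gene that was not among the 10, Entpd4b was called lower in KO TP cells (log2 difference -0.97, SE 0.20, limma adjusted p 0.0161) and in KO SP cells (-0.86, adjusted p 0.0398), and missed the threshold in TN cells (-0.85, adjusted p 0.0685). These calls were lost in the TP cells without WT replicate 1 or 2 or KO replicate 2 or 3 (adjusted p 0.0572 to 0.0958) and in the SP cells without any 1 replicate but KO replicate 2 (0.0912 to 0.184). With only the compared groups fitted both were lost (0.193 and 0.134), and the SP call was also lost with no filter (0.0514) and with the replicate block (0.0556). Because the copies share their reads, the Entpd4b values are not separate from those of Entpd4. Of 8 listed nucleoside diphosphohydrolases 6 were tested, and Entpd4b was the only one called in any subset.

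Ugt1a7c (ENSMUSG00000090124), an enzyme that joins glucuronic acid to small molecules for excretion, was the gene whose KO minus WT difference varied most across the subsets. In WT cells its libraries held 42.0, 17.3 and 52.0 TPM in TP, 51.5, 66.8 and 37.02 TPM in SP, and 34.5, 38.4 and 27.5 TPM in TN cells. In KO cells they held 6.79, 4.38 and 8.00 TPM in TP, 1.36, 5.35 and 4.23 TPM in SP, and 10.4, 10.5 and 8.31 TPM in TN cells. KO TN libraries were thus the highest of the KO libraries, and KO SP libraries included the lowest. KO minus WT was -2.26 (TP), -3.58 (SP) and -1.68 (TN), a spread of 1.91, while for the other 9 genes the 3 differences lay within 0.45 of each other; whether the genotype difference varies by subset was not tested, since the genotype contrast chose the gene.

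Ugt1a genes are read from alternative first exons joined to shared later exons, and 53.7% of the 50-base words of Ugt1a7c occur in other genes, 52.8% in Ugt1a6a alone. The other Ugt1a genes were low, with Ugt1a6a the highest of them at 5.16 ± 4.55 TPM in WT and 0.98 ± 1.16 TPM in KO libraries, and of the 10 listed genes of glucuronidation 5 were tested and 0 called in any subset. Summed over all 9 Ugt1a genes the level was 35.7 to 74.2 TPM in WT and 3.79 to 15.1 TPM in KO libraries, so the genotypes stayed apart for the sum.

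Oip5os1 (ENSMUSG00000085438), the long non-coding RNA with the miR-7 site shown above, had the smallest difference of the 10 but little spread. WT libraries ran from 119 through 129 to 145 TPM and KO libraries from 74.6 through 85.0 to 91.0 TPM, and the KO mean was 64.5% of the WT mean. The differences were -0.58 (TP), -0.62 (SP) and -0.68 (TN). The 3 miR-7 genes were listed at 0 in all 18 libraries, from a kit that captures messenger RNA, so the microRNA itself was not measured. Oip5, which gives the gene its name, did not exceed 1.05 TPM, and Zswim8, part of the ubiquitin ligase that acts in microRNA decay on such sites, was at 194 ± 41.9 TPM in WT and 177 ± 17.2 TPM in KO libraries and was not called in any subset.

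Among the genes that were higher in KO cells, Camk2b (ENSMUSG00000057897), the beta subunit of calcium/calmodulin-dependent protein kinase II, was nearly constant there. KO libraries ran from 220 through 233 to 240 TPM, a highest over lowest ratio of 1.09, while WT libraries ran from 70.0 through 89.9 to 135 TPM, a ratio of 1.94. The KO mean was 2.41 times the WT mean, and the differences were 1.37 (TP), 1.41 (SP) and 1.09 (TN). Among 13 listed genes of this kinase and calmodulin, 11 were tested. Camk2n1, which encodes an inhibitor of the kinase, was lower in KO cells. It stood at 34.8 ± 2.79 against 63.5 ± 4.52 TPM in TP cells (log2 difference -0.85, SE 0.11, limma adjusted p 0.000331) and at 38.9 ± 2.84 against 70.3 ± 4.96 TPM in SP cells (-0.84, adjusted p 0.000495), and was not called in TN cells. Its 9 KO libraries, 33.1 to 41.7 TPM, lay under all 9 WT libraries, 47.7 to 74.6 TPM, and the call in TP cells was lost when only the compared groups were fitted (adjusted p 0.0564). Camkk1, a kinase upstream of other calcium-dependent kinases, was called higher in KO SP cells (12.0 ± 2.49 against 3.57 ± 2.25 TPM, limma adjusted p 0.0263), a call lost without WT SP replicate 2 or 3 or KO SP replicate 1 or 2 (0.084 to 0.129), with no filter (0.062) and with only the compared groups fitted (0.209). The kinase's other subunits Camk2d and Camk2g overlapped between genotypes, at 68.2 ± 21.1 and 166 ± 25.1 TPM in WT against 61.9 ± 10.7 and 184 ± 20.1 TPM in KO libraries, and Camk2a did not exceed 1.43 TPM.

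**Figure D2:**
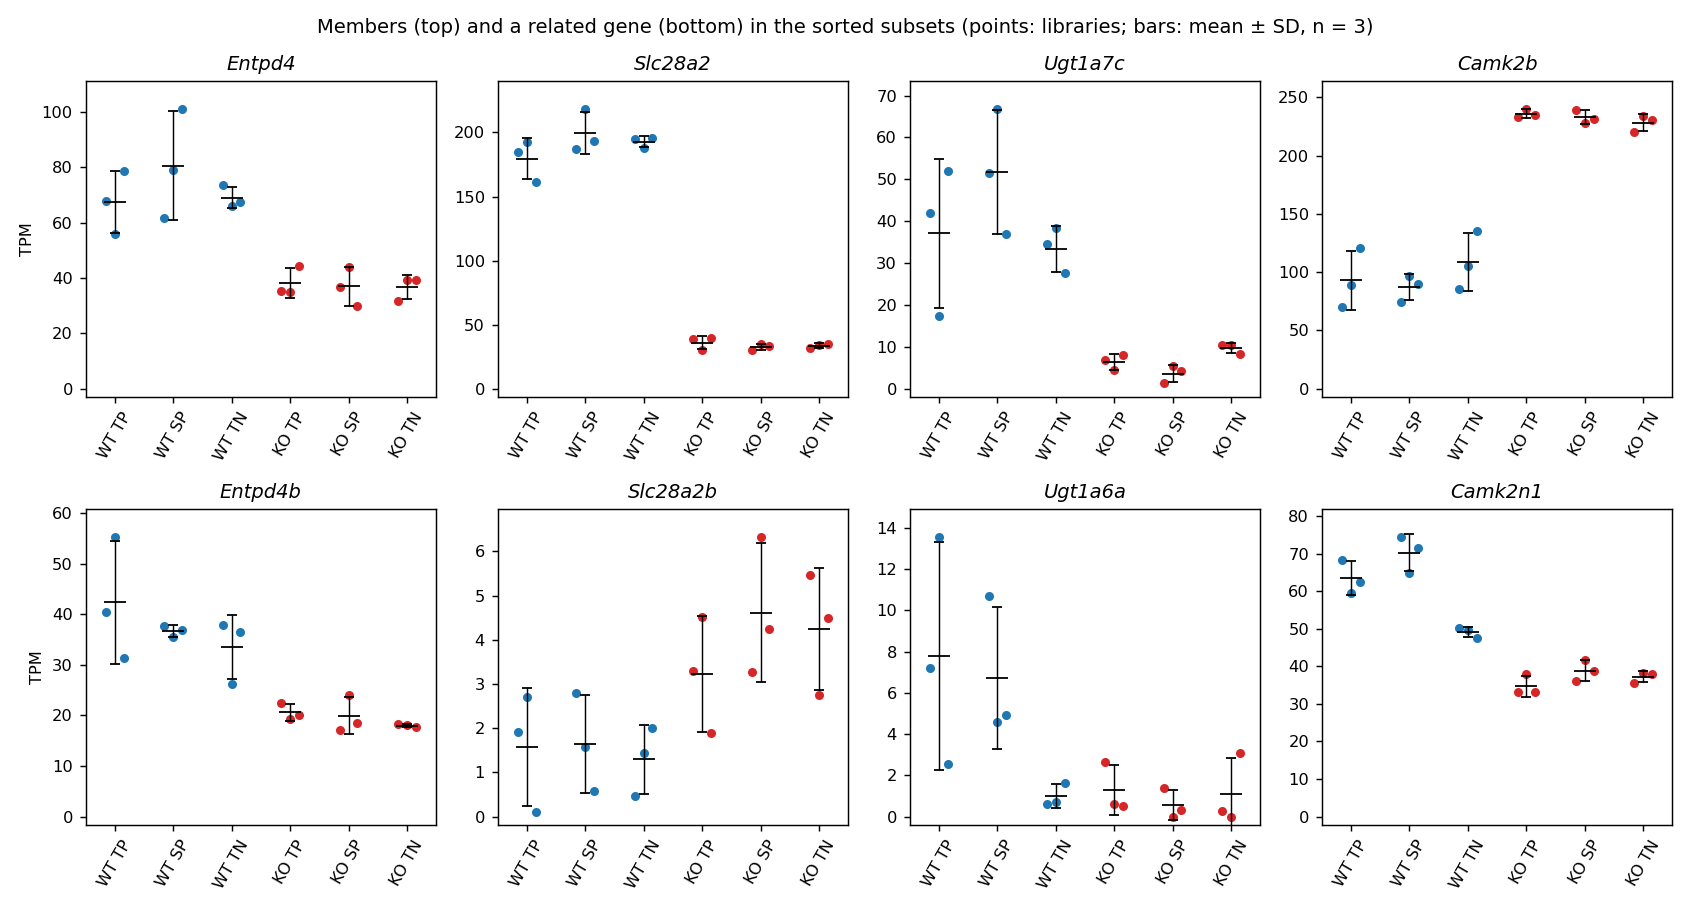
Level in TPM of 4 of the genes (top) and of a related gene for each (bottom) in the 18 libraries of the sorted subsets; points are libraries and bars the mean ± SD of 3. Entpd4b and Camk2n1 lie lower in all 9 KO libraries, Slc28a2b has higher means in KO cells at 0.1 to 6.33 TPM, and Ugt1a6a overlaps.

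Cep85 (ENSMUSG00000037443), a centrosomal protein that restrains the kinase Nek2, had the highest level of the 10 in KO cells. In WT cells its libraries held 148, 193 and 262 TPM in TP, 133, 134 and 204 TPM in SP, and 167, 206 and 311 TPM in TN cells. In KO cells they held 568, 631 and 539 TPM in TP, 505, 545 and 514 TPM in SP, and 490, 636 and 525 TPM in TN cells. The lowest KO library was 1.58 times the highest WT library, the KO mean was 2.82 times the WT mean, and the differences were 1.56, 1.75 and 1.31. Within WT cells the library numbered 3 was the highest and the library numbered 1 the lowest in all 3 subsets, and in KO cells the library numbered 2 was the highest in all 3. Column names of the table join the number to the genotype, which reads as 1 mouse per number. Of the 50-base words of Cep85, 8.3% occur in other genes, most of them in Cnbd2. Of 9 listed genes of centriole duplication and the centrosome linker, 8 were tested and 0 called in any subset. Nek2 was at 1.25 ± 1.52 TPM in WT and 1.12 ± 1.42 TPM in KO libraries.

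Cdk5rap1 (ENSMUSG00000027487) encodes an enzyme that adds a methylthio group to mitochondrial transfer RNAs. WT libraries ran from 9.37 through 13.5 to 22.5 TPM and KO libraries from 28.4 through 34.7 to 40.0 TPM, a KO mean 2.39 times the WT mean. The differences of 1.18 (TP), 1.24 (SP) and 1.29 (TN) had a spread of 0.103. A list of 7 genes held genes of transfer RNA modification beside Cdk5rap2 and Cdk5rap3, which were listed with them but share only the name. All 7 were tested and 0 called in any subset. Ccdc117 (ENSMUSG00000020482) ran from 30.5 through 32.0 to 38.4 TPM in WT and from 48.9 through 59.4 to 79.3 TPM in KO libraries, a KO mean 1.89 times the WT mean, with differences of 0.96, 0.95 and 0.76. The library numbered 3 was the highest for Ccdc117 in all 3 KO subsets. No transcript model of Ccdc117 or Eps8l1 shares a 50-base word with another gene.

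**Figure D3:**
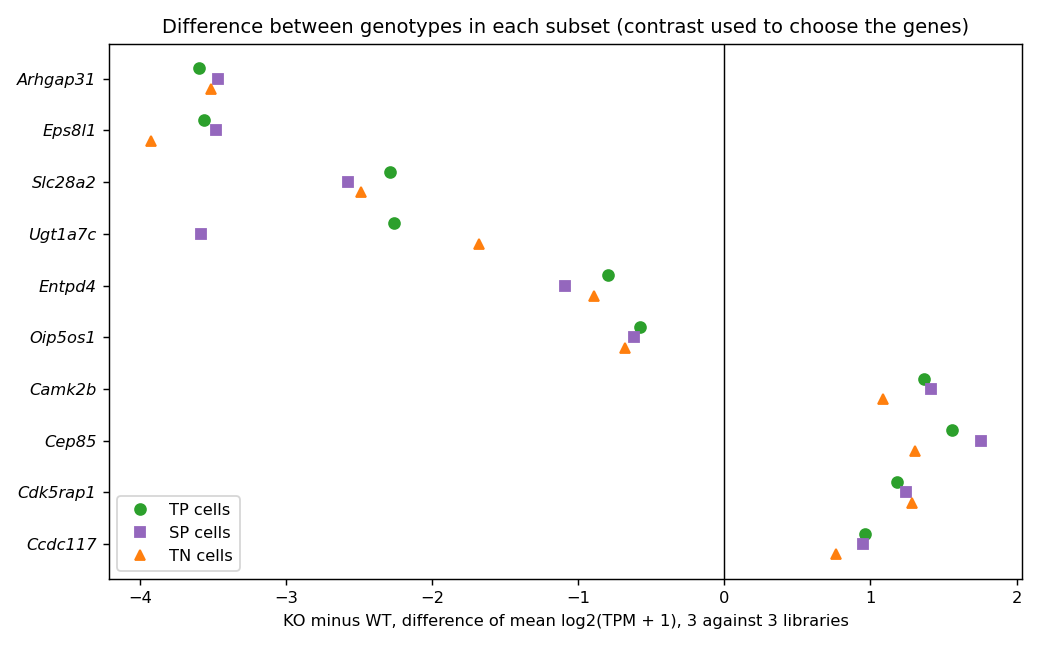
KO minus WT difference of the mean log2(TPM + 1), 3 against 3 libraries, in TP (circles), SP (squares) and TN (triangles) cells; these are the differences by which the genes were chosen. For 9 of the 10 genes the 3 subsets lie within 0.45 of each other, and Ugt1a7c ranges from -3.58 to -1.68.

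Position was looked at because B2m itself was deleted. In RefSeq order, Slc28a2 lies 5 tested genes from B2m. Oip5os1 and Cdk5rap1 are on the same chromosome at 50 and 170 tested genes from B2m, and Camk2b and Ccdc117 lie 9 tested genes apart on another. Of the 19 other tested genes within 10 of B2m, 1 was called between genotypes in any subset, Eif3j1 in TN cells (14.2 ± 7.92 TPM in all WT and 6.62 ± 2.66 TPM in all KO libraries, limma adjusted p 0.0374), and 0 were called in all 3. The Eif3j1 call was lost without WT TN replicate 1 or 2 or KO TN replicate 2 or 3 (0.13 to 0.185), with no filter (0.097) and with only the compared groups fitted (0.247). Spg11, next to B2m, was the only one whose libraries did not overlap, at 20.3 to 34.7 TPM in WT and 13.7 to 19.2 TPM in KO libraries, and it was not called in any subset. Of all tested genes 1.22% did not overlap, and 1.59% (TP), 1.35% (SP) and 0.716% (TN) were called. The genes between B2m and Slc28a2, which are Trim69, Rps12-ps10, Sord and Shf, overlapped between genotypes. The differences of Slc28a2, -2.29 to -2.57, stand beside means over the 3 subsets that run from -1.34 (Gm14018) to 1.07 (Slc28a2b) among the 19, with a median of -0.03.

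**Figure D4:**
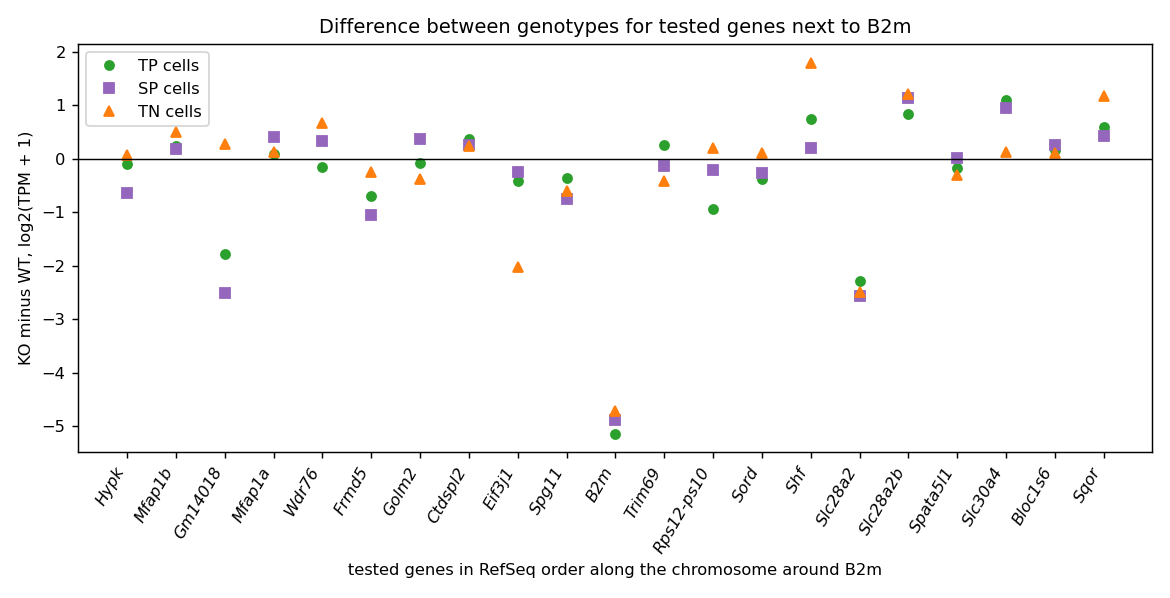
KO minus WT difference of the mean log2(TPM + 1) for B2m and the 20 tested genes around it in RefSeq order, in TP (circles), SP (squares) and TN (triangles) cells. B2m and Slc28a2 are low in all 3 subsets. For Gm14018, Eif3j1 and Shf the points of the subsets lie far apart, but a difference between subsets was not tested.

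Around each of the genes the 3 nearest tested genes on either side were also read. Of the 6 read around each gene, those called were Entpd4b beside Entpd4, described above, Tigit beside Arhgap31, Ncr1 beside Eps8l1 and Sh3bgrl3 beside Cep85. Over all tested genes 1.59% (TP), 1.35% (SP) and 0.716% (TN) were called. Tigit, an inhibitory receptor, was called higher in KO TP (log2 difference 2.62, limma adjusted p 0.00025) and SP cells (1.82, 0.00933), the latter call lost without WT SP replicate 2 or KO SP replicate 1 or 2 (0.0556 to 0.0699). With only the compared groups fitted, both Tigit calls were lost (0.0649 and 0.11). Ncr1, which encodes NKp46, was called lower in KO TP (-0.28, adjusted p 0.0125) and SP cells (-0.25, 0.035), and Sh3bgrl3 higher in KO TN cells (0.40, 0.0459). Each of the Ncr1 and Sh3bgrl3 calls was lost with 1 replicate left out, in TP cells without WT replicate 1 or KO replicate 2 or 3, in SP cells without any but WT replicate 3, and in TN cells without any but WT replicate 3 (adjusted p 0.0508 to 0.184). All 3 of these calls were also lost with no filter (0.064 to 0.141) and with only the compared groups fitted (0.148 to 0.343), and that of Sh3bgrl3 under median-of-ratios scaling (0.0859). Of these, 0 were called in all 3 subsets. Other neighbours had libraries that did not overlap: Gm16867, next to Entpd4, was at 0.17 to 7.18 TPM in WT and 0 in every KO library, and Exd1, near Oip5os1, was at 0 to 0.90 TPM in WT and 1.35 to 5.05 TPM in KO libraries. Neither was called in any subset. Over all tested genes, the libraries of 1.22% did not overlap.

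For each gene, the tested gene outside the 10 with the most similar profile over the 18 libraries was found from the mean absolute difference of centred log2(TPM + 1). These were Khdc1a for Arhgap31 (0.30), Gm14125 for Eps8l1 (0.42), Tmem254a for Slc28a2 (0.35) and Ugt1a7c (0.52), Epsti1 for Entpd4 (0.18), Galnt6 for Oip5os1 (0.10), Zfp36l2 for Camk2b (0.19), Marveld2 for Cep85 (0.21), Txnip for Cdk5rap1 (0.23) and Hsp90ab1 for Ccdc117 (0.11). Each of the 9 genes so named had KO libraries that did not overlap the WT libraries, in the direction of its partner. Because the profiles they were matched to are set mainly by the genotype difference that chose the 10 genes, that separation follows from the matching and is only a description. Gm14125, for example, ran from 71.6 to 153 TPM in WT and from 1.25 to 15.4 TPM in KO libraries, and Zfp36l2, which encodes a protein that promotes decay of AU-rich messenger RNAs, from 336 to 432 TPM in WT and from 832 to 1039 TPM in KO libraries.

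Comparisons between subsets, averaged over both genotypes, are not the contrast that chose the genes and were tested. The genes were picked from the same libraries as differing between genotypes in every subset. That choice may favour genes with little difference between subsets, so a low number of calls is not read as a result. Of the 30 tests (10 genes in TN against TP, SP against TP and TN against SP cells) 0 were called by limma, against 1.89%, 0.433% and 0.275% of all tested genes, and 1 had an unadjusted p under 0.05, a level passed by 11.7%, 6.15% and 8.69% of all tested genes. That 1 was Eps8l1, which was lower in TN than in SP cells, at -0.68 on the log2(TPM + 1) scale (95% interval -1.31 to -0.05, limma adjusted p 0.535). The tightest intervals were those of Oip5os1 and Slc28a2. For TN against TP cells, Oip5os1 gave -0.11 (-0.26 to 0.03) and Slc28a2 0.01 (-0.17 to 0.18), while for Eps8l1 the same interval ran from -1.10 to 0.16 and for Ugt1a7c from -0.32 to 0.86. Averaged over both genotypes, the order of the 3 subsets was therefore not resolved for any of the 10 genes. Such an average can hide orders that differ between WT and KO cells, as the Ugt1a7c values above would allow. The order within each genotype was not tested. The lists of related genes held 64 tested genes, of which 1 was called between subsets: Entpd1, an ectonucleotidase of the Entpd4 family, was lower in TN (86.9 ± 18.8 TPM) than in TP cells (131 ± 29.0 TPM, n = 6 each, limma adjusted p 0.0336), a call lost without any 1 of 9 of the 12 libraries (0.0505 to 0.105), with no filter (0.0729) and with only the compared groups fitted (0.109).

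Ionomycin raises cytosolic calcium without receptor engagement. Its comparison with vehicle asks which genes differ in WT NK cells purified from splenocytes kept with it. The labels read as treatment of all splenocytes, so effects through other spleen cells were not separated. Cep85 was the only one of the 10 genes called, against 2.91% of all 14372 tested genes. Its level was 136, 105 and 126 TPM after ionomycin and 751, 941 and 509 TPM with vehicle, so the groups did not overlap. The log2 change was -2.54 (SE 0.26, limma adjusted p 0.00294), 5.82-fold on the TPM + 1 scale. Without vehicle replicate 2, or without any 1 ionomycin replicate, the adjusted p was 0.0629 to 0.103, with the change between -2.34 and -2.62. The summed level of 9 NK cell markers was also lower after ionomycin, at 3953 to 5055 TPM against 7046 to 12165 TPM, and its part in the Cep85 result was not tested.

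Slc28a2 and Ccdc117 also had an unadjusted p under 0.05, which 15.1% of all tested genes had, but were not called. Slc28a2 was at 16.7, 27.6 and 34.0 TPM after ionomycin and 27.9, 88.7 and 62.6 TPM with vehicle, which overlap (log2 change -1.07, limma adjusted p 0.323). Ccdc117 was at 58.4, 71.0 and 83.9 TPM after ionomycin and 18.6, 37.9 and 46.6 TPM with vehicle, which do not overlap (1.11, adjusted p 0.188). The intervals of the remaining genes were wide in this table. Camk2b was at 32.2, 33.3 and 47.1 TPM after ionomycin and at 20.5, 24.9 and 125 TPM with vehicle, so that 1 vehicle library stood far above the rest (-0.12, 95% interval -1.53 to 1.29), and Arhgap31 spanned 1.45 to 12.5 TPM over the vehicle libraries alone. Neutrophil markers summed to 0 to 377 TPM in the vehicle and 0 to 120 TPM in the ionomycin libraries. Among related genes 3 of 65 tested were called: Arhgap25 (54.1 ± 8.02 against 154 ± 21.8 TPM) and Rac2 (603 ± 57.8 against 1316 ± 346 TPM) fell, and Slc29a1, a nucleoside transporter of another family, rose (87.7 ± 10.0 against 25.4 ± 4.82 TPM). Their limma adjusted p-values of 0.0139, 0.0416 and 0.0131 became 0.0729 or above without vehicle replicate 2 or any 1 ionomycin replicate, and for Rac2 also without vehicle replicate 1 (0.0797), under median-of-ratios scaling (0.0918) and with no filter (0.124).

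**Figure D5:**
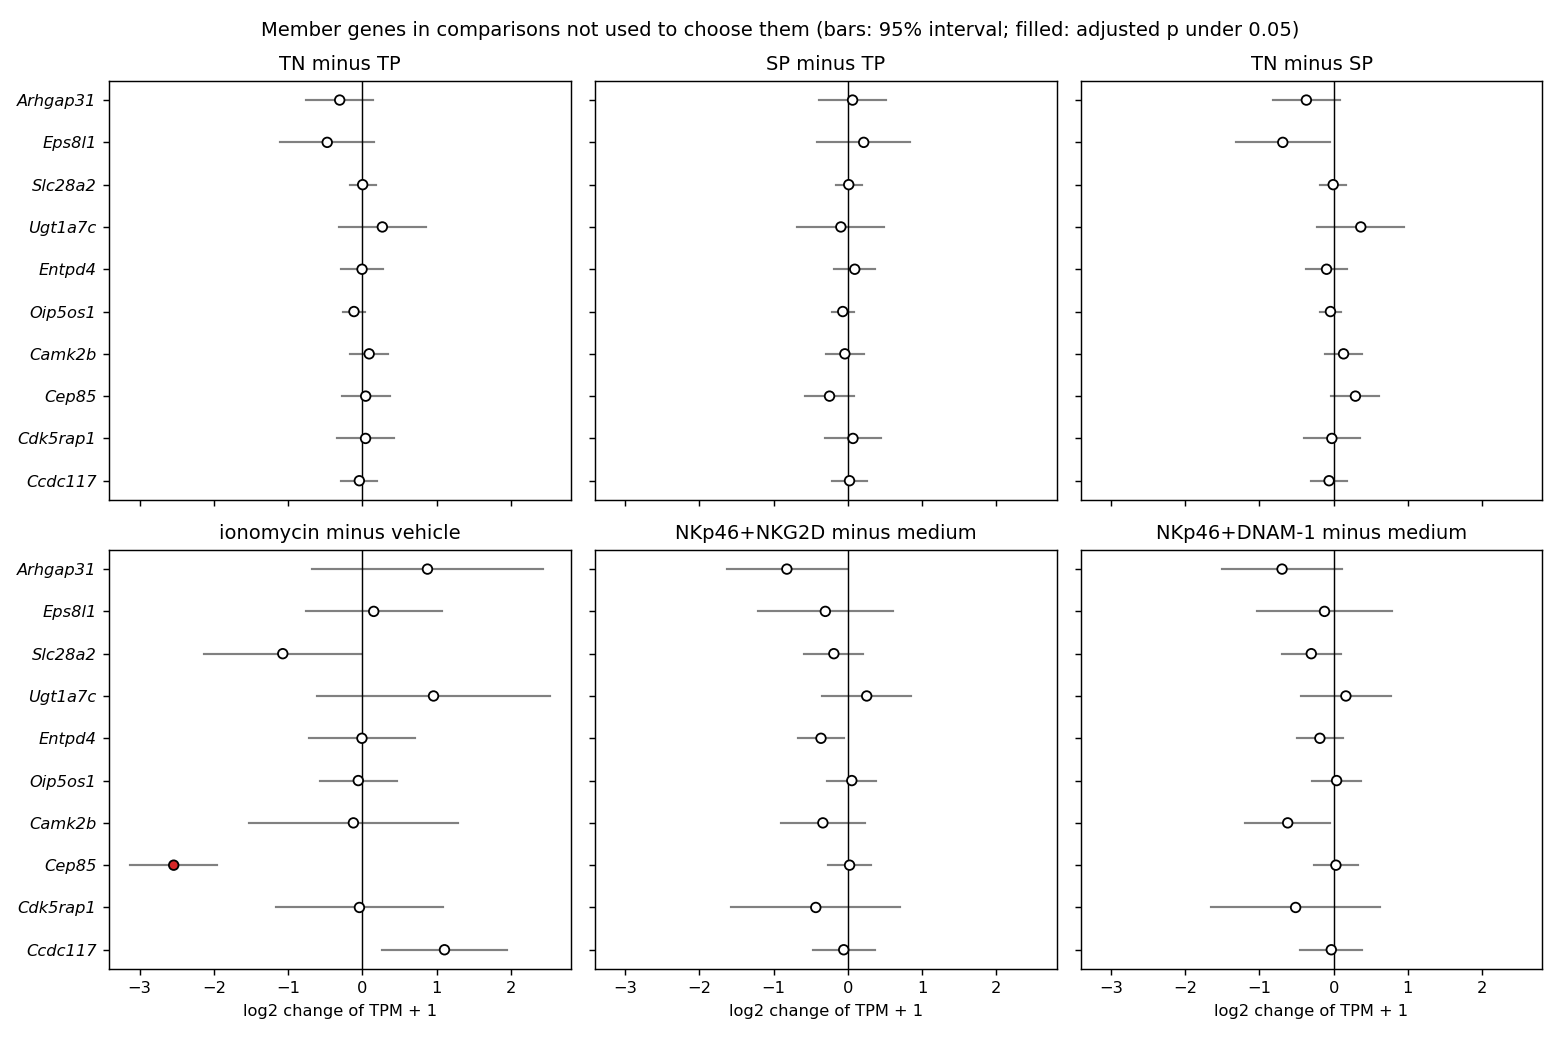
Log2 change of TPM + 1, with its 95% interval, for the 10 genes in 6 comparisons other than the KO minus WT contrast. A filled point has a limma adjusted p under 0.05. The single filled point is Cep85 after ionomycin, at -2.54.

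Antibodies to activating receptors, given for 48 h, asked which genes respond to receptor engagement in WT cells. With the groups taken from the table's column names, 0 of the 10 genes were called by limma in any comparison, against 0.431% of 13689 tested genes for NKp46 with NKG2D, 0.782% for NKp46 with DNAM-1 and 0.0146% between the 2 antibody pairs. Unadjusted p-values under 0.05 were found for Arhgap31 and Entpd4 with NKG2D, for Camk2b with DNAM-1, and for 0 of the 10 genes between the pairs, levels passed by 15.1%, 18% and 1.22% of all tested genes. Arhgap31 held 9.28, 15.1 and 6.74 TPM in medium, 7.13, 5.49 and 3.39 TPM with NKp46 and NKG2D, and 5.98, 5.89 and 5.29 TPM with NKp46 and DNAM-1. The NKG2D libraries overlapped medium and the DNAM-1 libraries did not, and the adjusted p-values were 0.320 and 0.346. Camk2b held 25.5, 42.8 and 35.0 TPM in medium and 19.2, 26.2 and 20.0 TPM with NKp46 and DNAM-1, which overlap (-0.62, limma adjusted p 0.248). Entpd4 held 57.3, 72.1 and 57.7 TPM in medium, 47.0, 45.6 and 51.7 TPM with NKG2D, and 52.3, 56.2 and 54.9 TPM with DNAM-1. Neither antibody group overlapped medium (-0.36 and -0.18, limma adjusted p 0.267 and 0.530). Its copy Entpd4b overlapped between the groups, and the level of either copy alone is uncertain.

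Cep85, the gene called after ionomycin, overlapped between the antibody groups, with 378, 394 and 395 TPM in medium, 336, 385 and 476 TPM with NKG2D, and 355, 393 and 450 TPM with DNAM-1. Its change was 0.02 (95% interval -0.27 to 0.32) for NKG2D and 0.03 (-0.26 to 0.33) for DNAM-1. Ugt1a7c, at 92.1, 75.5 and 166 TPM in medium, 150, 133 and 98.5 TPM with NKG2D and 138, 107 and 110 TPM with DNAM-1, overlapped throughout. Ugt1a6a, which shares much of its sequence, did not overlap medium and was not called. It held 4.73, 2.63 and 4.56 TPM in medium, 26.8, 20.3 and 14.9 TPM with NKG2D, and 20.2, 26.9 and 10.1 TPM with DNAM-1. The sum over all Ugt1a genes overlapped between the groups. The sum of handling stress genes was 825 to 1287 TPM in medium and 332 to 382 TPM in the 6 antibody libraries. Genes above 0 numbered 13555 to 14674 in the medium libraries and 16107 to 18096 in the antibody libraries. The part of these differences in the antibody comparisons was not tested.

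The 3 tumour libraries have no comparison group in their table, so their values are a description. Their titles name CD27-CD11b+ NK cells, while their column names carry B2MKO and SP, so whether these are SP cells was not settled. Cep85 was the highest of the 10 genes there, at 400.0, 815 and 582 TPM, and Arhgap31 the lowest on average, at 4.71, 5.57 and 5.56 TPM. Slc28a2 held 48.4, 58.9 and 54.4 TPM, Ugt1a7c 14.5, 8.67 and 10.5 TPM, Oip5os1 32.3, 44.7 and 67.6 TPM and Ccdc117 80.8, 77.9 and 75.3 TPM. Eps8l1 was at 23.3, 38.0 and 39.9 TPM, Entpd4 at 34.6, 34.0 and 27.0 TPM, Camk2b at 29.6, 38.7 and 21.3 TPM and Cdk5rap1 at 5.20, 6.94 and 9.82 TPM. B2m stood at 3929 to 5196 TPM in these libraries.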

How the data were processed

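RNA was measured in 36 libraries. Per the labels' protocols, total RNA of 50 ng went into a messenger RNA kit. The authors deposited 4 tables of TPM, made with STAR and RSEM on GRCm39 per the submitters' processing notes, with versions not given in the sources used here. Depth is unknown, and precision rests on 3 libraries per group. Genes averaging 1 TPM or more over a table were fitted as log2(TPM + 1), which understates changes of low genes, with limma 3.58.1 in R 4.3.3 (1 mean per group, intensity trend, two-sided, Benjamini-Hochberg over all tested genes, called at adjusted p under 0.05). An exact permutation test of 3 against 3 cannot go below 0.1. The fit was run on simulated data with independent libraries, which cannot speak to libraries that share a mouse. Groups came from titles, but from column names in the antibody table, where 6 of 9 titles differ; tumour column names also differ from their titles. Where labels name no separate animals, p-values measure only the spread between samples. All 10 genes, B2m, listed related genes (named where called, sharing sequence or a direct partner), RefSeq neighbours (10 around B2m, 3 around each gene) and 1 most similar gene each are named; order came from RefSeq GRCm38.p6, matching 11896 of 11993 tested symbols. The count for 1 group of related genes is not reported here. The genes and lists were chosen with earlier results of these data known. Alternatives changed the pseudocount, filter, scaling, block, groups fitted, titles and each replicate.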

Additional observations from a re-analysis of the deposited data

How the results depend on the processing

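Each value was recomputed under the alternatives of the processing section, changing 1 choice at a time. Of the KO minus WT values of the 10 genes, 327 stayed within the spread of the replicates, 0 changed sign and 3 moved: with a pseudocount of 0.1, Arhgap31 went to -5.31 (TP), -5.02 (SP) and -6.21 (TN). The libraries of all 10 genes stayed apart within each subset under median-of-ratios scaling and with any 1 replicate left out. Of the tested values, 966 kept their direction and their side of the threshold. The other 4 were Cep85 after ionomycin without vehicle replicate 2 or any 1 ionomycin replicate, so the number of the 10 genes called ran from 0 to 1 with 1 replicate left out.

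Counts over all genes depended far more on the settings. With 1 replicate left out, KO minus WT called 109 to 144 genes (TP), 91 to 165 (SP) and 51 to 113 (TN), against 191, 162 and 86 with all. The same range was 3 to 342 against 418 for ionomycin, 28 to 257 against 59 for NKp46+NKG2D, 26 to 516 against 107 for NKp46+DNAM-1, where the most came without medium replicate 3, and 0 to 4 against 2 between the antibody pairs. Fitting only the compared groups gave 43 (TP), 68 (SP), 12 (TN), 26 (NKG2D) and 23 (DNAM-1) calls. With no filter the counts were 185 for ionomycin and 45 for DNAM-1, and a pseudocount of 0.1 left 1 call between the pairs. Groups from the sample titles gave 0 calls for NKG2D, 1 for DNAM-1 and 0 between the pairs. The cause was not tested.

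The replicate block gave 239 calls for NKG2D, 528 for DNAM-1 and 0 between the pairs, and changed no call of the 10 genes. Same-numbered libraries deviated together only weakly over all genes (mean correlation 0.0639 over 9 antibody pairs with 1 over 0.1, 0.062 over 3 ionomycin pairs, 0.000578 in WT and 0.0203 in KO subsets). The main fit did not pair them. The same number was highest in all 3 subsets for Arhgap31 and Cep85 in both genotypes and for Cdk5rap1 in WT cells. In KO cells this also held for Eps8l1, Ccdc117 and Oip5os1, and for the remaining genes and genotypes it did not. No share of all tested genes stands beside these orders, so they are only a description. If a number stands for 1 mouse, the 9 sorted libraries of a genotype come from 3 mice and are not independent. With 3 libraries a group and no depth, changes within the printed intervals could not be resolved.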
